A study of Mus musculus with 768 samples.

Results

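Laminins and the receptors that bind them join the Schwann cells (SCs) that ensheath peripheral axons to their basal lamina. The 10 genes described here are 5 laminin chains (Lama2, Lama4, Lamb1, Lamb2 and Lamc1) and 5 receptor genes (Itga1, Itga6, Itgb1, Itgb4 and Dag1). They were taken by name from a table of 25700 genes, and all 10 were found in it. The table held raw read counts of 768 single SCs sorted from sciatic nerves of mice at postnatal day 60 (P60), 384 from each of 2 plates. The plates are independent biological replicates, and each was filled from a suspension that pooled cells of male and female mice in equal parts. All mice carried a Cre that is active in the SC lineage, with the ReYFP reporter that it switches on and with βAct-DsRed, on a C57bl/6J background. Cells were selected as eYFP-positive, so the reporter and not a surface marker defines them, and the mice form a single group, with no treated or mutant animals beside them. Plate 1 held 74280540 reads and plate 2 held 209404659 reads, and a cell had between 1025 and 4076083 reads.

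A laminin is a trimer of an alpha, a beta and a gamma chain that SCs secrete and assemble around themselves into the basal lamina. SCs meet it through integrins, which are pairs of an alpha and a beta chain, and through dystroglycan, whose membrane part holds the dystrophin family inside the cell. In developing nerve this contact is needed for SCs to sort axons and to begin myelination, and loss of the Lama2 chain causes a muscular dystrophy with neuropathy. Myelinating SCs (mSC) and non-myelinating Remak SCs (nm(R)SC) both lie on a basal lamina in the adult nerve, and the comparison asks how far each class reads the genes for it.

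Classes were rebuilt from a clustering from which the 10 genes and all related genes named below were left out. Of 674 cells with 1500 or more detected genes, 151 of plate 1 and 81 of plate 2 were mSC-like, 174 and 241 were nm(R)SC-like, and 15 and 12 stayed unnamed. The general SC markers Sox10, S100b and Erbb3 were read in both classes of both plates. The 10 mSC markers summed to 70553 and 65275 CPM (counts per 1000000 reads of a sum) in mSC-like cells against 6804 and 7496 CPM in the nm(R)SC-like cells in plates 1 and 2. The 8 nm(R)SC markers summed to 177 and 323 CPM against 3507 and 2607 CPM. Both lists were used to name the clusters and were kept in the clustering, so these contrasts were built in and are no separate support. Pmp22 alone had 57738 and 52274 CPM in mSC-like cells. Of the nm(R)SC markers, Ednrb ran the other way in plate 2, at 292 CPM in mSC-like against 279 CPM, and Gap43 did not exceed 1.62 CPM in either class. Of the 7 fibroblast markers, Col1a1 and Col3a1 carried nearly all reads, and the list summed to 475 and 450 CPM in mSC-like and to 2149 and 769 CPM in the nm(R)SC-like cells. Ly6c1 was at 0 in all 4 sums and Pdgfra did not exceed 0.162 CPM in any of them. The endothelial, perineurial, pericyte and immune lists summed to between 2.01 and 137 CPM in the classes. Their part, and that of Col1a1 and Col3a1, in the differences below was not tested.

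The median depth was 159030 reads in mSC-like and 153345 reads in nm(R)SC-like cells in plate 1, and 640471 and 432565 reads in plate 2. Cells of plate 2 were thus deeper, yet their medians of 2480 and 2275 detected genes lay below the 3441 and 3358 of plate 1. For each gene, reads were summed over the cells of a class within a plate, which gave 4 sums. A sum weighs cells by their reads, and fewer cells that read a gene and fewer reads per cell cannot be told apart in it.

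Among the laminin chains, both alpha chains were read less in mSC-like than in nm(R)SC-like cells of either plate, while both beta chains were read slightly more, and no chain passed the test. In an edgeR quasi-likelihood test over all genes, 0 of the 10 laminin and receptor genes were called between the classes at a Benjamini-Hochberg adjusted p under 0.05, against 2.72% of all 13246 genes tested, with 1.37% higher and 1.35% lower in the mSC-like sums. At an unadjusted p under 0.05 edgeR marked 3 of the 10, Lama2, Lama4 and Itga1, against 12.4% of all genes tested. DESeq2 called 1 of the 10, Itga1, against 12.1% of all genes. The median log2 ratio (mSC-like over nm(R)SC-like) was 0.22 over the 5 chains and -0.48 over the 5 receptors, beside -0.11 over all genes tested. The sign was the same in both plates for 9 of the 10 genes, Lamc1 being the exception.

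Lama2, the alpha chain of the main SC laminin, had 203 CPM in the mSC-like sum and 407 CPM in the nm(R)SC-like sum of plate 1, and 170 and 362 CPM in plate 2. The 2 values of each class lay close together and the classes did not overlap. The fitted log2 ratio was -0.90 ± 0.338 (SE, 2 plates), with an edgeR adjusted p of 0.301. Here and below, this SE is the absolute log2 ratio divided by the square root of its quasi-likelihood F. It comes from the fit to both plates and is not the spread between the 2 plates. Lama2 reached 5 or more reads in 51.0% of mSC-like and 70.4% of nm(R)SC-like cells in plate 1, after each cell had been thinned to 100000 reads, and in 32.9% and 42.5% in plate 2.

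Lama4, the alpha chain of a laminin found in vessels as well as nerve, showed 88.7 against 249.6 CPM in plate 1 and 81.5 against 186 CPM in plate 2, mSC-like cells first. Its fitted log2 ratio was -1.20 ± 0.371 (SE, 2 plates; 95% interval -2.04 to -0.35), with an edgeR adjusted p of 0.179. It was thus lower in mSC-like cells by more than the plates differed within a class, without passing the adjustment over all genes. The thinned detection shares ran the same way, with 35.6% against 55.6% of cells in plate 1 and 15 of 79 against 71 of 233 cells in plate 2. The adjusted p of Lama4 (edgeR or DESeq2) ranged from 0.071 to 0.591 over the alternatives that used both plates, and its log2 ratio from -1.25 to -0.80. Within single plates the ratio was -1.48 in plate 1 and -1.18 in plate 2.

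Lamb1, the more abundant beta chain, read 432 CPM in mSC-like against 349 CPM in the nm(R)SC-like cells in plate 1 and 464 against 301 CPM in plate 2. The classes did not overlap, and the log2 ratio of 0.61 ± 0.329 (SE, 2 plates) had an edgeR adjusted p of 0.531. Its detection was 81.7% against 71.3% in plate 1 and 50.6% against 31.8% in plate 2. Lamb2, the other beta chain, stayed between 52.8 and 75.3 CPM in all 4 sums, with a log2 ratio of 0.42 ± 0.504 (SE, 2 plates; edgeR adjusted p = 0.871), and was detected in 8.15% to 20.4% of cells. Few cells carried it: its richest cell held between 17.4% and 34.9% of its reads in each sum.

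Lamc1, the gamma chain shared by these laminins, gave 191 CPM in the mSC-like sum and 225 CPM in the nm(R)SC-like sum of plate 1, but 116 and 89.6 CPM in plate 2. It was thus the gene whose direction turned between plates, and its fitted log2 ratio of 0.22 ± 0.376 (SE, 2 plates; edgeR adjusted p = 0.936) spanned 0. The gap between plates was wider than that between classes, with a log2 ratio of plate 2 over plate 1 of -0.71 in mSC-like and -1.32 in nm(R)SC-like cells.

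Among chains that can take the same place in a trimer, the balance in the sums was similar between classes. Per kb of exon, Lamb1 made up 81.0% and 79.1% of the reads of both beta chains in mSC-like cells of plates 1 and 2, and 80.2% and 75.3% in nm(R)SC-like cells. With thinned cells the gap was wider, at 86.2% and 78.5% against 82.6% and 68.3%. Lama2 made up 62.9% and 60.7% of Lama2 and Lama4 together in mSC-like cells, and 54.7% and 59.0% in nm(R)SC-like cells, so the 2 alpha chains kept similar proportions at different levels. The class means, 61.8% ± 1.58 and 56.8% ± 3.06 (SD, n = 2 plates), were not tested against each other.

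**Figure D1:**
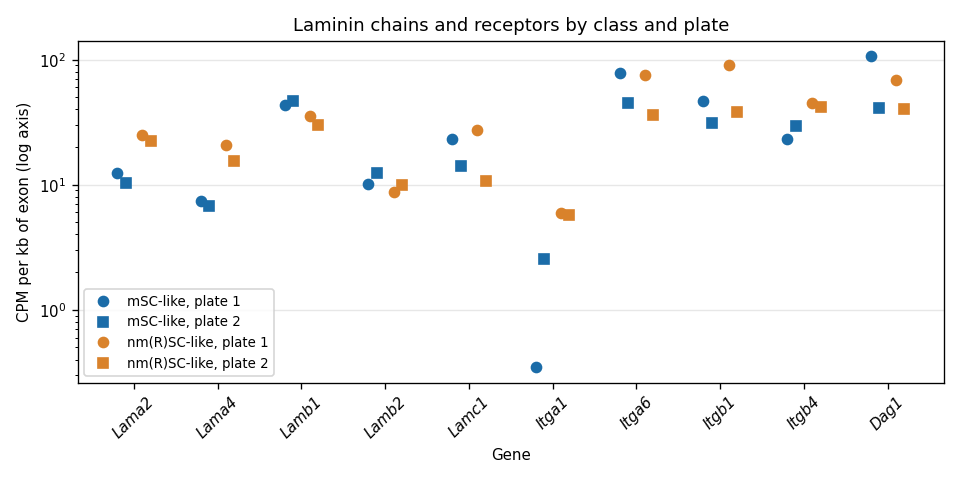
Level of each of the 10 genes in CPM per kb of exon (log axis) for mSC-like (blue) and nm(R)SC-like cells (orange), with plate 1 as circles and plate 2 as squares. Lama2 and Lama4 lie higher in nm(R)SC-like cells of both plates, and Itga1 is the lowest gene in every sum, at 0.348 CPM per kb in mSC-like cells of plate 1.

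Among the receptors Itga6, Itgb1 and Dag1 lay above Itgb4 in both classes by the mean of the plates per kb of exon, although in plate 2 the nm(R)SC-like sum had Itgb4 as the highest of them, at 41.7 CPM per kb. Itga1 had the widest log2 ratio of the 10 genes. Itga1, the alpha chain that pairs with Itgb1 to bind collagen and laminin, showed 6.47 CPM in the mSC-like sum and 110.0 CPM in the nm(R)SC-like sum of plate 1, and 47.5 and 107 CPM in plate 2. Levels in nm(R)SC-like cells matched between plates and those in mSC-like cells did not. The fitted log2 ratio was -2.48 ± 0.791 (SE, 2 plates; 95% interval -4.28 to -0.68), with an edgeR adjusted p of 0.197.

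A single cell decided this value. Of the 2884 Itga1 reads in mSC-like cells of plate 2, 2873 (99.6%) came from 1 cell of 3085575 reads, the third deepest of that plate, and the other cells together gave 0.191 CPM. In that cell Itga1 stood at 931 CPM and its partner Itgb1 at 1233 CPM, the latter being 49.6% of all Itgb1 reads of mSC-like cells in plate 2. The cell had 3 of 10 mSC markers at 50 CPM or more, Pmp22 at 3104 CPM, Mal at 1030 CPM and Cldn19 at 108 CPM. Of 8 nm(R)SC markers 1 was at that level, Ednrb at 686 CPM, and of 7 fibroblast markers 2 were. Ednrb had 292 CPM in the mSC-like and 279 CPM in the nm(R)SC-like sum of that plate. In the same order, Pmp22 had 52274 and 4877 CPM, Mal 3824 and 2018 CPM, and Cldn19 1249 and 31.0 CPM. The cell thus lay below both sums for Pmp22 and Mal. Prx, Mag, Pllp, Gjb1, Fa2h and Ugt8a were at 0 in the cell and Egr2 was at 0.648 CPM. Whether it is a myelinating cell was not tested. Without this cell, a choice made after seeing the data, the log2 ratio of Itga1 was -6.29 with an edgeR adjusted p of 0.082. With the richest cell of every sum left out for each gene, also chosen after seeing the data, it was -7.11 and the adjusted p 0.00632. With each cell thinned to the same depth before summing it was -3.54 and the adjusted p 0.00299, and DESeq2 gave -2.45 and 0.00668. Over the alternatives that used both plates the edgeR or DESeq2 adjusted p of Itga1 ranged from 0.00299 to 0.532 and the log2 ratio from -7.11 to -1.69. In plate 2 alone, with the Itga1-rich cell kept, it was -1.15, and in plate 1 alone -3.90, each without a test. The share of all genes called was 3.57% with thinned cells, 5.1% without the richest cells and 12.1% with DESeq2.

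Counting cells rather than reads gave a similar picture of Itga1 in both plates. It reached 5 or more of 100000 reads in 2 of 104 mSC-like cells of plate 1 (1.92%, exact 95% interval 0.234 to 6.77%) and in 1 of 79 in plate 2 (1.27%, 0.032 to 6.85%). In nm(R)SC-like cells it did so in 28 of 108 (25.9%, 17.97 to 35.2%) and 39 of 233 (16.7%, 12.2 to 22.2%). Itga1 was therefore read in a minority of nm(R)SC-like cells, whose median cell had 0 CPM in both plates. Reads without molecular identifiers are not independent molecules, and these intervals cover counting error only. An overlapping transcript, Gm49395, shares 685 bases of Itga1 exons on the same strand, so some of these reads may have been split or left uncounted.

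**Figure D2:**
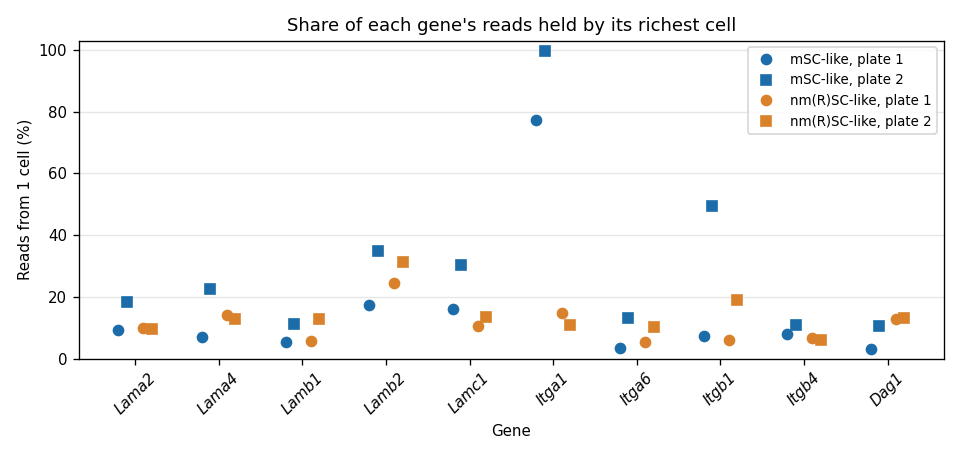
Percent of each gene's reads in a class and plate that came from the richest cell, for mSC-like (blue) and nm(R)SC-like cells (orange), with plate 1 as circles and plate 2 as squares. Itga1 in mSC-like cells stands apart at 77.3% and 99.6%, followed by Itgb1 in mSC-like cells of plate 2 at 49.6%.

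Itga2, which encodes another alpha chain that pairs with Itgb1 and binds collagen and laminin, neighbors Itga1 on chromosome 13, 20995 bases away on the same strand. It had 2.73 CPM in the mSC-like sum and 137 CPM in the nm(R)SC-like sum of plate 1, and 8.11 and 98.1 CPM in plate 2. Itga2 passed the test with a log2 ratio of -4.47 ± 0.742 (SE, 2 plates) and an edgeR adjusted p of 0.0198. It was detected in 2.88% and 2.53% of thinned mSC-like cells and in 28.7% and 8.58% of nm(R)SC-like cells in plates 1 and 2. Because the 2 genes lie side by side and both had lower sums in mSC-like cells, the windows around their start sites are shown, from 250 bases before to 50 bases after the start, in RefSeq coordinates of GRCm38.p6. Itga1 lies on the minus strand and its window spans chr13:115101915-115102214. The window of Itga2, also on the minus strand, spans chr13:114932051-114932350. Capitals mark letters of a searched motif.
Itga1: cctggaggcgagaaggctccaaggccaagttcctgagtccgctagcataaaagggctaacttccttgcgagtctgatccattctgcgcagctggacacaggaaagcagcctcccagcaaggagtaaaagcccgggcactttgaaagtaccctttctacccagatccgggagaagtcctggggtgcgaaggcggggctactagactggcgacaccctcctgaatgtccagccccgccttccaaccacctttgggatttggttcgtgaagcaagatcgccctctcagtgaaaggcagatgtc
Itga2: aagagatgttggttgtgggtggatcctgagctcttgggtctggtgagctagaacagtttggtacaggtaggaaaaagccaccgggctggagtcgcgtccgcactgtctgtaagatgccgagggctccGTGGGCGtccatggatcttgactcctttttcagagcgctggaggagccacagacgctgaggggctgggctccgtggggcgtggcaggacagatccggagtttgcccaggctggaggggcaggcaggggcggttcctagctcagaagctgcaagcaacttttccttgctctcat
The motifs searched on both strands were CATTCC, as bound by TEAD factors, the partners of YAP and TAZ, ACAAAG or ACAATG, as bound by SOX factors, and GTGGGCG, as bound by EGR factors. The Itga1 window held none of them and the Itga2 window held 1 EGR match. Of all 32851 windows of this length, 14.7% held the TEAD letters, 28.6% the SOX letters and 7.97% the EGR letters. A window was found for 6 of the 10 genes, and among these only Itgb1 held a match, 1 to TEAD and 1 to SOX letters. A match is a description of letters and not a binding site.

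Itga6, the laminin-binding alpha chain that pairs with either Itgb1 or Itgb4, had 702.2 CPM in the mSC-like sum and 679 CPM in the nm(R)SC-like sum of plate 1, and 404 and 324 CPM in plate 2. The classes were close within each plate and the plates were far apart. The log2 ratio was 0.33 ± 0.322 (SE, 2 plates; 95% interval -0.41 to 1.06; edgeR adjusted p = 0.81). Itga6 was read in 90.4% of mSC-like and 85.2% of nm(R)SC-like cells in plate 1, and in 53.2% and 42.9% in plate 2.

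Itgb1, the beta chain common to most SC integrins, gave 191 CPM in mSC-like against 369 CPM in the nm(R)SC-like cells in plate 1 and 126 against 156 CPM in plate 2. Its log2 ratio of -0.48 ± 0.365 (SE, 2 plates; edgeR adjusted p = 0.72) rested mainly on plate 1, where the within-plate ratio was -0.95 against -0.30 in plate 2. Without the cell that held 49.6% of its reads, mSC-like cells of plate 2 had 67.1 CPM of Itgb1. Its detection was 62.5% against 82.4% in plate 1 and 25.3% against 29.6% in plate 2.

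Itgb4, the beta chain that pairs only with Itga6 and appears late in SC development, stood at 163 against 313 CPM in plate 1 and 208 against 292 CPM in plate 2, again with mSC-like cells first. Both plates had the lower value in mSC-like cells, and the log2 ratio was -0.57 ± 0.348 (SE, 2 plates; edgeR adjusted p = 0.608). Itgb4 took 33.3% and 48.8% of the per kb reads of both beta chains in mSC-like cells of plates 1 and 2, and 33.0% and 52.1% in nm(R)SC-like cells. That balance differed between plates and hardly between classes.

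Dag1, which encodes both subunits of dystroglycan, read 678 CPM in the mSC-like sum and 435 CPM in the nm(R)SC-like sum of plate 1, and 262 and 257 CPM in plate 2. The classes differed in plate 1 and were nearly equal in plate 2, for a log2 ratio of 0.48 ± 0.346 (SE, 2 plates; edgeR adjusted p = 0.701). By cells the direction was shared, with Dag1 detected in 89.4% against 73.1% in plate 1 and 55.7% against 36.9% in plate 2.

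**Figure D3:**
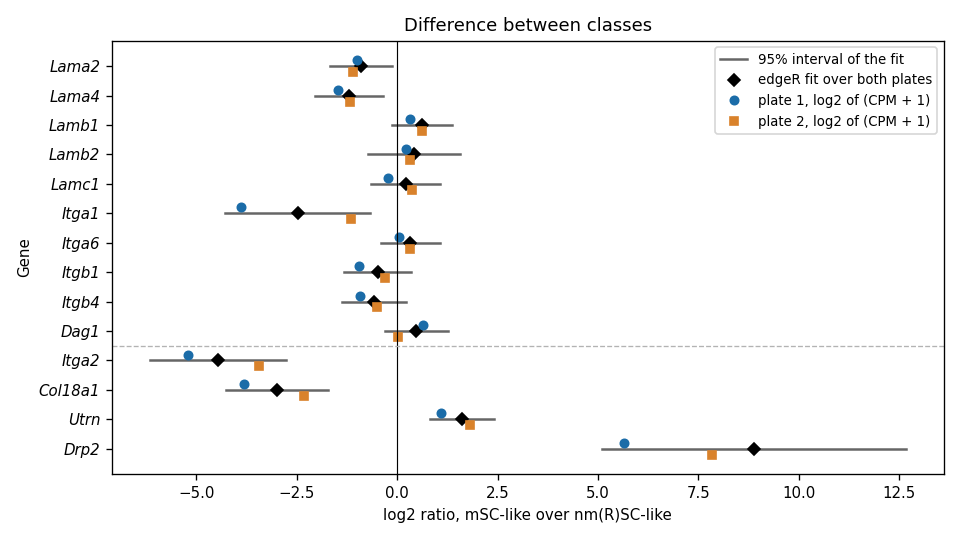
Log2 ratio of mSC-like over nm(R)SC-like cells, with the edgeR fit (diamond) and its 95% interval over both plates and the ratio within plate 1 (blue circle) and plate 2 (orange square) on log2 of CPM + 1. Above the dashed line are the 10 laminin and receptor genes, none of which passed the test, and below it Itga2, Col18a1 and Drp2, which did, and Utrn at an adjusted p of 0.0515.

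Levels of different genes were compared per kb of exon, with CPM divided by the length of all annotated exons, which is not the length of the transcript a cell uses. In mSC-like cells the order by mean of the 2 plates was Dag1, Itga6, Lamb1, Itgb1, Itgb4, Lamc1, Lama2, Lamb2, Lama4 and Itga1. Dag1, at 107 and 41.3 CPM per kb, and Itga6, at 77.8 and 44.8, overlapped each other, as did Itga6 and Lamb1, Lamb1 and Itgb1, and Lama2 and Lamb2. In nm(R)SC-like cells Itgb1 came first at 90.5 and 38.3 CPM per kb, followed by Itga6, Dag1, Itgb4, Lamb1, Lama2, Lamc1, Lama4, Lamb2 and Itga1. There Itgb1, Itga6, Dag1 and Itgb4 overlapped each neighbor in turn, and so did Lama2, Lamc1 and Lama4. Itga1 was last in both classes, at 0.348 and 2.56 CPM per kb for the mSC-like class, against 5.92 and 5.76 for the nm(R)SC-like class.

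The plates differed for several of these genes more than the classes did. In nm(R)SC-like cells 9 of the 10 genes had the lower CPM in plate 2, with a median log2 ratio of plate 2 over plate 1 of -0.32. In mSC-like cells 6 did, with a median of -0.19, and these 6 were lower in plate 2 in both classes. Itga6, Itgb1, Lamc1 and Dag1 were among them. The plate cannot be told apart from the animals, the depth and the detection rate that came with it.

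**Figure D4:**
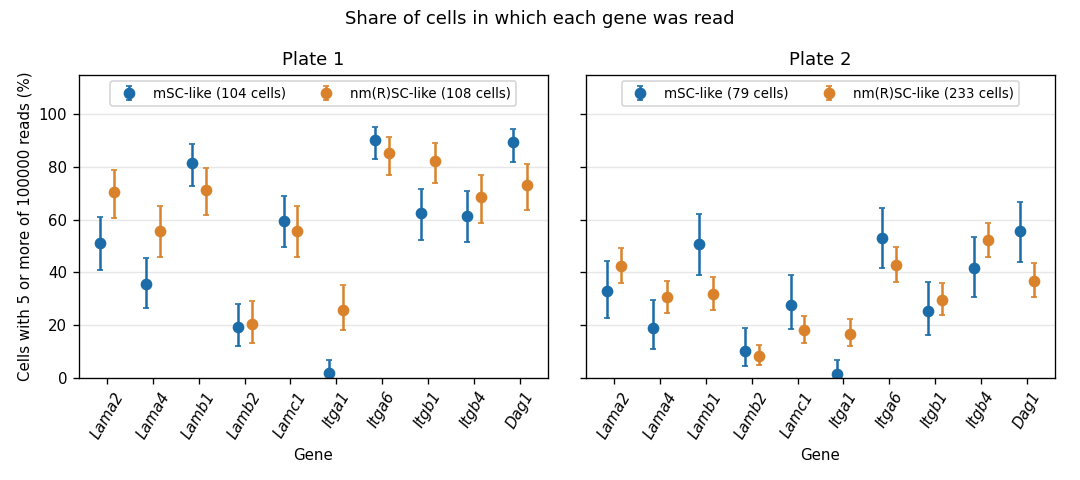
Percent of cells in which each gene had 5 or more reads after thinning to 100000 reads, with exact 95% binomial intervals, for mSC-like (blue) and nm(R)SC-like cells (orange) of plate 1 (left) and plate 2 (right). Itga1 was at 1.92% and 1.27% of mSC-like cells, and each of the 10 shares was lower in plate 2 than in plate 1 within either class.

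At 5 or more of 100000 thinned reads per gene, a whole trimer was detected in a minority of cells, and in fewer in plate 2 than in plate 1. Lama2, Lamb1 and Lamc1 were detected together in 30.8% of mSC-like and 33.3% of nm(R)SC-like cells in plate 1, and in 10.1% and 2.58% of plate 2. Lama4, Lamb1 and Lamc1 were found together in 22.1% and 28.7% in plate 1, and in 6.33% and 2.58% in plate 2. The median cell read 6 of the 10 genes in plate 1 and 3 in plate 2, in either class. Lama2 and Lama4 were both read in 23.1% of mSC-like and 43.5% of nm(R)SC-like cells in plate 1, and in 8.86% and 11.6% of plate 2.

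Both receptor pairs of Itga6 were met in both classes. Itga6 and Itgb4 were read together in 56.7% of mSC-like and 61.1% of nm(R)SC-like cells in plate 1, and in 25.3% and 24.5% of plate 2. Itga6 with Itgb1 was read in 57.7% (60 of 104) and in 81 of 108 cells in plate 1 and in 17.7% and 15.5% in plate 2. All 3 were read together in 40.4% and 54.6% of cells in plate 1, and in 11.4% and 7.73% in plate 2. Single cells that read both pairs were thus common in plate 1 and a small minority in plate 2. Itga1 with Itgb1, in contrast, was found in 0 of 104 mSC-like cells of plate 1, which allows a share of up to 2.88% by 3 counts or 3.48% by the exact 95% interval, and in 1 of 79 in plate 2, against 23.1% and 5.58% of nm(R)SC-like cells. Cells that read Itgb4 but not Itga6, its only partner, made up 4.81% and 7.41% in plate 1 and 16.5% and 27.9% in plate 2.

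Each class consisted of 2 clusters, and the genes varied between them. The mSC-like clusters were led by Emid1, Cuedc2 and Pllp in one case (67 and 57 cells of plates 1 and 2) and by Mfap5, Ogn and Fam178b in the other (84 and 24 cells). The Mfap5-led cells had lower Lama2 than the Emid1-led cells, 121 against 328 CPM in plate 1 and 105 against 196 CPM in plate 2. Lamb1 was also lower in them, 337 against 577 CPM and 342 against 513.2 CPM. Itgb4 was higher, 216 against 83.9 CPM in plate 1 and 256 against 188 CPM in plate 2, and so was Dag1, 799 against 495 CPM and 316 against 241 CPM.

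Drp2 and Utrn also differed in level between the mSC-like clusters, in opposite directions. Drp2, the dystrophin-related protein that dystroglycan holds where the myelin sheath touches the SC membrane, had 721.2 against 133 CPM in plate 1 and 399 against 169 CPM in plate 2, Mfap5-led cells first. Utrn, the utrophin gene, ran the other way with 417 against 788 CPM and 390 against 1193 CPM. These are descriptions without a test, and in the 24 Mfap5-led cells of plate 2 the richest cell held 40.3% of the Lama2 reads, 20.9% of those of Dag1 and 32.5% of those of Drp2.

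The nm(R)SC-like clusters were led by Apoe, Entpd2 and Scn7a (122 and 217 cells) and by Tagln2, Rps3 and Ednrb (52 and 24 cells). Itgb4 was lower in the Tagln2-led cells, 150 against 379 CPM in plate 1 and 240 against 299.7 CPM in plate 2. Lamb1 was higher in them, 403 against 327 CPM and 413 against 286 CPM. Itga1 had 78.5 and 102 CPM in the Tagln2-led and 123 and 108 CPM in the Apoe-led cells, so it was read in both. None of these differences was tested. In the 24 Tagln2-led cells of plate 2 the richest cell held 42.5% of the Lamb1 reads and 41.1% of those of Itgb4. It held most of the Itga1 reads there, so the level of Itga1 in these cells rested mainly on a single cell.

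**Figure D5:**
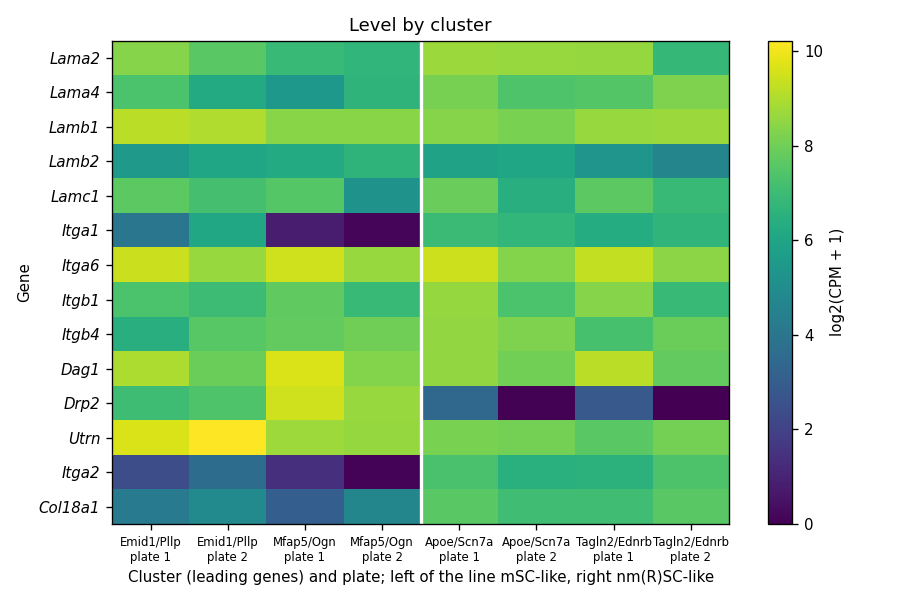
Level of the 10 genes and of Drp2, Utrn, Itga2 and Col18a1 in each cluster and plate, as log2 of CPM + 1 (color scale), with mSC-like clusters left of the white line and nm(R)SC-like clusters right of it. Itga1 is darkest in the Mfap5-led cluster, at 0.764 and 0.116 CPM, and Drp2 is dark in all nm(R)SC-like columns.

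Of 67 further genes in 6 lists around the basal lamina, its receptors and their linkers, 56 could be tested. EdgeR called 3 of the 56, beside 360 of all 13246 genes tested (2.72%). Itga2 and Col18a1 were lower and Drp2 higher in mSC-like cells, and 53 were not called. These 3 calls depended on which cells were kept. With 2500 or more genes per cell the edgeR adjusted p was 0.0561 for Itga2, 0.0651 for Col18a1 and 0.052 for Drp2. With 1000 or more it was 0.103 for Itga2, 0.163 for Col18a1 and 0.0495 for Drp2, whose log2 ratio was then 2.79. The median log2 ratio of the 56 was -0.18, beside -0.11 over all genes. At an unadjusted p under 0.05 edgeR marked 12 of the 56, beside 1642 of all 13246 genes (12.4%). The 12 were 4 basal lamina partners, 3 dystrophin complex genes, 2 other receptors, 2 integrin linkers and 1 glycosylation enzyme. DESeq2 called 9 of the 56, beside 1600 of all 13246 genes (12.1%). Among the other laminin chains, Lama1, Lama3 and Lamc3 had 0 reads in both classes and Lamb3 did not exceed 0.027 CPM. Lama5 was tested and had 35.9 and 2.59 CPM in mSC-like against 6.17 and 1.88 CPM in the nm(R)SC-like cells, with a log2 ratio of 1.65 ± 1.48 (SE, 2 plates; edgeR adjusted p = 0.781). Without the richest cell of each sum its ratio was -1.05.

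Of 9 other receptor genes, 8 were tested and 1, Itga2, was called. Itga7, a laminin-binding alpha chain best known from muscle, had 35.9 and 33.7 CPM in mSC-like against 127 and 112 CPM in the nm(R)SC-like cells, with a log2 ratio of -1.64 ± 0.477 (SE, 2 plates; edgeR adjusted p = 0.15), while DESeq2 gave an adjusted p of 0.0238 and thinned cells 0.0249. Its exons overlap those of Mettl7b on the opposite strand by 9 bases. Itgav, whose alpha chain binds vitronectin, had a log2 ratio of -0.98 (edgeR adjusted p = 0.447), and Itgb8, a beta chain that pairs with it, had -0.24 (edgeR adjusted p = 0.923). Itgb8 changed sign under 2 alternatives.

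Of 9 basal lamina partners, 8 were tested. Col18a1, a basal lamina collagen that also carries heparan sulfate chains, had 11.5 and 27.5 CPM in mSC-like against 175 and 143 CPM in the nm(R)SC-like cells, and was called at a log2 ratio of -3.00 ± 0.559 (SE, 2 plates; edgeR adjusted p = 0.031). Col4a2, a chain of the collagen network of basal laminae, had the reverse values, 424 and 248 CPM against 241 and 147 CPM, with a log2 ratio of 0.93 (edgeR adjusted p = 0.283). Its neighbor and partner chain Col4a1 had -0.01 (edgeR adjusted p = 1.0), with the plates in opposite directions. Hspg2, which encodes perlecan, had 0.39 (edgeR adjusted p = 0.782). Col4a1 and Col4a2 overlap by 22 bases of exon on opposite strands.

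In the dystrophin-glycoprotein complex, which ties dystroglycan to the cytoskeleton, 1 of 12 tested genes of a list of 15 was called. Drp2 had 487 and 234 CPM in mSC-like against 8.76 and 0.0271 CPM in the nm(R)SC-like cells, the latter being 324 and 4 reads. Its log2 ratio of 8.89 ± 1.66 (SE, 2 plates; edgeR adjusted p = 0.031) rested on that near absence, and the edgeR adjusted p was 0.0593 without the Itga1-rich cell of plate 2. Over the alternatives that used both plates the log2 ratio of Drp2 ranged from 2.79 to 9.74. Utrn showed 565 and 965 CPM against 262 and 272 CPM and missed the limit at a log2 ratio of 1.61 ± 0.349 (SE, 2 plates; edgeR adjusted p = 0.0515). It passed the limit with DESeq2 (adjusted p = 0.000565), and with edgeR without a filter on low counts (0.0305) and with thinned cells (0.0265). With all genes used for the classes the edgeR adjusted p was 0.0315, but there Utrn was not left out of the clustering that built the classes. Dmd, the dystrophin gene, had 477 and 277 CPM against 462 and 243 CPM (log2 ratio 0.26, edgeR adjusted p = 0.882). Sgce, a sarcoglycan, had -0.94 (edgeR adjusted p = 0.404).

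None of the 13 tested genes of the list of dystroglycan glycosylation was called by edgeR. Pomgnt1 had 166 and 60.9 CPM in mSC-like against 31.0 and 44.2 CPM in the nm(R)SC-like cells (log2 ratio 1.59, edgeR adjusted p = 0.326). B4gat1 and Ispd, other genes of that list, had -0.30 and -0.88 (edgeR adjusted p = 0.882 and 0.617). Of the integrin linker and signal list, 14 of 15 genes were tested and 0 were called by edgeR. Plec, the plectin gene that links Itgb4 to intermediate filaments, had a log2 ratio of -0.26 (edgeR adjusted p = 0.888), and the GTPase genes Rac1 and Cdc42 had 0.12 and 0.59 (edgeR adjusted p = 0.97 and 0.553).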

How the data were processed

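Single SCs of 2 plates were sequenced with a miniaturized Smart-Seq2 protocol, which reads full-length cDNA without molecular identifiers. The authors deposited raw read counts per gene and cell. The submitters' processing notes name bcl2fastq, STAR 2.6.1c, featureCounts and GRCm38.p5, while the study's methods name another STAR version and a human build for identifiers that are those of mouse genes. Strand setting and treatment of multimapping reads are not given in the sources used here, so overlapping genes are marked as such. Symbols and exon lengths came from GENCODE M21, where 25664 of 25700 identifiers matched.

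The 10 genes, the related lists, markers and tests were chosen with earlier results of these data known. Cells with 1500 or more detected genes were clustered (Seurat 5.3.0, R 4.3.3, integration over 12 dimensions, resolution 0.5), leaving out 77 laminin, receptor and related genes. Cell filter, dimensions and resolution followed the study, which used an earlier Seurat version and left no P60 cluster unnamed. The classes here can differ from those of the study. A cluster was named from markers of which at least 3 reached 50 CPM. It stayed unnamed if its cells had a median under 33.3% of their plate's median reads and no such marker among its 10 leading genes. This held for the unnamed cluster. Its 15 cells of plate 1 had a median of 282988 reads and its 12 cells of plate 2 one of 3989 reads. Doublets were not called, since single cells were sorted into wells, and whether a well held more than 1 cell was not tested. All other genes were split at random into 2 parts, each tested in classes built from the other. Counts were summed per plate and class and tested with edgeR 4.0.16 (quasi-likelihood, TMM, filterByExpr at 10 counts, a block for the plate and 1 residual degree of freedom), with Benjamini-Hochberg adjustment over all genes tested. The classes were paired within a plate, since the study filled each plate from a single suspension. Itga1 and Drp2 were not used to name clusters. Thinning drew 100000 reads from each cell that had them, which left 104 and 79 mSC-like and 108 and 233 nm(R)SC-like cells, and CPM ratios within plates used a pseudocount of 1. From the related lists every called gene was named, and up to 3 of the genes not called with the highest level. DESeq2 1.42.0 and other settings were run as alternatives. Some genes of the lists are not reported here.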

Additional observations from a re-analysis of the deposited data

Results flagged for a closer look

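The 27 cells of the unnamed cluster, led by Hmgn2, Top2a and Hmgb2 over both plates, entered no comparison. The 10 genes were nevertheless read in the cluster's 15 cells of plate 1, above the limit that a count of 0 allows there (0.657 CPM). In its 15 cells of plate 1 the laminin chains stood at 169 CPM for Lama2, 117 CPM for Lama4, 721.1 CPM for Lamb1, 27.8 CPM for Lamb2 and 98.7 CPM for Lamc1. The receptors stood at 79.5 CPM for Itga1, 1258 CPM for Itga6, 158 CPM for Itgb1, 140 CPM for Itgb4 and 273 CPM for Dag1. Lamb1 and Itga6 thus lay above both named classes of that plate, which had 432 and 349 CPM of Lamb1 and 702.2 and 679 CPM of Itga6, and 28.8% and 32.3% of these reads came from 1 cell. The 12 cells of plate 2 held 181195 reads in all, too few for such a description. Without plate integration, a cluster of 15 cells of plate 1 and 1 of plate 2, led by Top2a, Cdca3 and Hmgb2, was named nm(R)SC-like. Another of 12 cells of plate 2, led by Rpa2, Dcaf1 and Sftpb, stayed unnamed. How far these cells are the 27 described here was not checked.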

How the results depend on the processing

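The log2 ratios of the 10 genes kept their side of the threshold and their direction in 105 of 110 recomputations on both plates, Itga1 passing it in 3 and Lamc1 turning in 2. Of the 10 genes 1 was called with DESeq2, with thinned cells and without the richest cell of each gene. Lamc1 turned to -0.14 with cells of 1000 or more genes, to -0.06 with thinned cells and to -0.24 in plate 1 alone, against 0.37 in plate 2. Of the related genes, 3 were called, against 9 with DESeq2, 7 with thinned cells, 1 with cells of 1000 or more genes and 0 with cells of 2500 or more. Over all genes 360 were called, against 1600 with DESeq2, 606 without the richest cell, 147 with cells of 2500 or more genes and 71 with 1000 or more. Without the replicate block, which ignores that both classes came from each plate, 69 genes were called in all, 0 of the 10 and 0 of the related genes, the edgeR adjusted p of Itga2, Col18a1 and Drp2 being 0.0602, 0.106 and 0.163. The median log2 ratio of all genes moved from -0.11 under edgeR to -0.07 under DESeq2, and was -0.19 and -0.16 within plates 1 and 2 on CPM. With thinned cells the mean Lamb1 share was 82.3% in mSC-like and 75.4% in nm(R)SC-like cells, against 80.0% and 77.7%. The ratio changed sign for Lama5 (from 1.65 to -1.05 without the richest cell), Itgb8 (0.99 with 1000 or more genes, 0.04 without integration), Hspg2 (-0.02 with 1000 or more genes, -0.05 in plate 1 against 0.54 in plate 2), Dmd (-0.04 with 2500 or more genes), B4gat1 (0.04 with thinned cells), Plec (0.03 with 1000 or more genes) and Rac1 (-0.33 in plate 1 against 0.28 in plate 2). Col4a1 turned to 0.02 with DESeq2, 0.10 without the block, 0.67 with 2500 or more genes, 0.06 without integration, 0.09 without the richest cell, 0.04 without the Itga1-rich cell and 0.27 in plate 1 against -0.58 in plate 2. The cause of these changes was not tested. With 2 plates, leaving out a plate leaves the other plate's ratio and no test.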
